A study of Mus musculus with 36 samples.

Results

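The livers of 4 mice that had sham surgery (SHAM) were compared with the livers of 4 mice that were given olive oil by oral gavage (VEHICLE), over the 10685 genes, of 29546 in the table, that had a normalized count of at least 10 in at least 4 of these 8 libraries. Both groups are controls from a study of cholestasis in C57BL/6 mice with 36 liver libraries in 9 groups of 4. Sham surgery stood as the control of bile duct ligation, with livers taken at 7 and 28 days (BDL7 and BDL28). Olive oil was the carrier of cyclosporin A at 15 mg/kg, the groups called CsA7 and CsA28 by day. The other control group ate a control diet (CTLD), beside mice that ate 0.1% DDC, a diet that injures bile ducts (DDC7 and DDC28). The labels give no day, age, sex or library batch for the controls, so surgery, gavage, housing, day of sampling and handling cannot be told apart. The p-values measure the spread between these libraries, which the labels give as separate samples.

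Sham surgery opens the abdomen under anesthesia and leaves the bile duct intact, so its livers serve to separate the effect of ligation from that of an operation. Oral gavage delivers the carrier oil into the stomach without surgery. The liver answers injury and cytokines with acute-phase proteins such as serum amyloid A, and it answers feeding, fasting and time of day through genes of sterol, fat and glucose metabolism, so control livers can differ in all of these.

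Recovered reads averaged 2540604 ± 266664 in SHAM libraries and 2808697 ± 388865 in VEHICLE libraries (SD, n = 4 each, exact permutation test, 2-sided p = 0.343, smallest possible 0.0286). Genes with at least 1 read averaged 16256 ± 194 in SHAM and 16805 ± 412 in VEHICLE (SD, n = 4 each, exact permutation p = 0.0857). Mitochondrially encoded genes held 4.86% ± 0.292 of the reads in SHAM and 5.29% ± 0.424 in VEHICLE (SD, n = 4 each, exact permutation p = 0.171). All 18 hepatocyte markers of the labelled tissue, liver, passed the filter, whereas none of 18 T and NK cell markers did.

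In limma's test, 2281 of 10685 genes (21.3%) passed an adjusted p of 0.05 between the control groups. Of these, 1189 (11.1%) were higher in SHAM and 1092 (10.2%) were lower. Differences were mostly small, with a median size of 0.54 on the log2 scale among called genes, and 230 genes (2.15%) also differed by more than 1, of which 101 (0.945%) were higher and 129 (1.21%) lower. For 2673 genes (25.0%) the 4 SHAM libraries lay wholly above or wholly below the 4 VEHICLE libraries. The median log2 difference over all genes tested was 0.01, and these shares are the background for each gene group below. Without the 2 VEHICLE libraries that had high Saa1, described further on, 1863 genes (17.4%) were called, 1006 higher (9.42%) and 857 lower (8.02%), 1498 of them shared with the 2281 and all of those with the same sign.

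**Figure D1:**
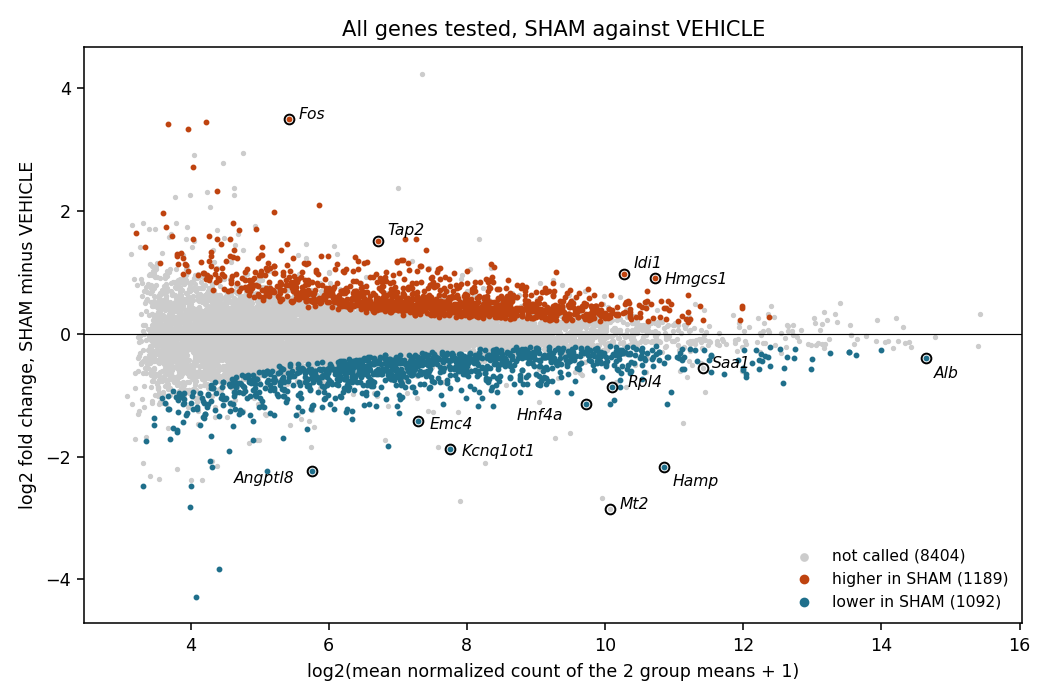
Each point is 1 of the 10685 genes, with the log2 mean normalized count on the horizontal axis and the log2 fold change of SHAM over VEHICLE on the vertical axis. The 1189 genes called higher in SHAM are orange, the 1092 called lower are blue, grey genes were not called and labelled genes are circled, with Hamp at -2.17 and Idi1 at 0.98.

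Hepcidin transcript fell in SHAM livers. Hamp encodes hepcidin, the liver hormone that limits iron export into blood, and its transcription is driven by BMP signals through SMAD proteins and by interleukin 6 through STAT3. Hamp had normalized counts of 755, 594, 560 and 798 in SHAM libraries, against 3685, 3000, 2626 and 2848 in VEHICLE libraries. Every SHAM library lay below every VEHICLE library, a log2 difference of -2.17 (SE 0.13, adjusted p = 1.04e-05), or 4.5-fold lower. The 2 VEHICLE libraries with high Saa1 were the highest for Hamp, at 3685 and 3000. Without them the difference was -2.03, a description with no test. CTLD livers averaged 2125 ± 445 (SD, n = 4), also above SHAM. The RefSeq promoter of Hamp (GRCm38.p6, chr7:30944030-30944279, minus strand) is shown because it is the stretch through which both signals act. Capitals mark GGCGCC, the core of a BMP response element, and TTCNNNGAA, the letters of a STAT site.
Hamp: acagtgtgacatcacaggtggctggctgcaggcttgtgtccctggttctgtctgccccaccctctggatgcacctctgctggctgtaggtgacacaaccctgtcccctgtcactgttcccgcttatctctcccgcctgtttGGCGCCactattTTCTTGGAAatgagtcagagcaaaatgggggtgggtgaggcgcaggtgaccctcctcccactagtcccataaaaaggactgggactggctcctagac
Searched on both strands in the 250 bases before the start of 32851 promoters, GGCGCC was found in 9.59% and TTCNNNGAA in 7.02%, so each match is a description of the sequence and not evidence of binding.

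Some other genes of heme and iron also fell. In that list, Hamp included, 5 of 24 were lower and 19 did not pass the test, with a median of -0.16 against 0.01 over all genes. That is 20.8% called, near the 21.3% over all genes, of which 10.2% were lower. Without the high-Saa1 libraries the lower count was again 5. Ftl1, a ferritin light chain that stores iron, had 4853, 4277, 4198 and 4174 in SHAM, against 6935, 6158, 6050 and 6076 in VEHICLE (log2 -0.53, SE 0.08, adjusted p = 0.000399). The ferritin gene Fth1, named after its values were seen, differed by -0.11 and did not pass (adjusted p = 0.31). Urod, an enzyme of heme synthesis, averaged 142 ± 7.39 in SHAM and 247 ± 23.7 in VEHICLE (SD, n = 4 each, log2 -0.79). Blvrb, a biliverdin reductase, averaged 248 ± 9.99 in SHAM and 369 ± 35.9 in VEHICLE (SD, n = 4 each, log2 -0.57). Alas1, the first enzyme of heme synthesis, had 231, 194, 310 and 831 in SHAM and 861, 684, 1201 and 1450 in VEHICLE. Its libraries overlapped and the difference of -1.61 did not pass the test (adjusted p = 0.0757).

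Bmp2, a ligand made by sinusoidal endothelial cells that raises hepcidin in mice, went the other way from Hamp. Its counts were 293, 284, 284 and 294 in SHAM, against 179, 165, 163 and 178 in VEHICLE, with no overlap (log2 0.75, SE 0.09, adjusted p = 9.68e-05). Since whole liver was sequenced, fewer cells of a type and less RNA per cell cannot be told apart, for this gene and for every marker below.

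Some nuclear receptors of hepatocyte identity and bile acid handling were lower in SHAM livers. In the list of bile acid and xenobiotic receptors 4 of 16 fell and 12 did not pass the test, with a median of -0.38, and without the high-Saa1 libraries 3 fell and 1, Nr5a2, rose. Hnf4a, the master regulator of hepatocyte genes, had 546, 446, 584 and 498 in SHAM, against 1500, 1398, 812 and 999 in VEHICLE (log2 -1.15, SE 0.20, adjusted p = 0.00637). The VEHICLE libraries with high Saa1 were the highest of the 4. The difference of -0.80 without them is therefore a description, with no test. Nr1h4, the bile acid receptor FXR, had 255, 283, 241 and 244 in SHAM and 416, 333, 366 and 357 in VEHICLE (log2 -0.52, SE 0.09, adjusted p = 0.0017). Nr1i3, the xenobiotic receptor CAR, averaged 117 ± 24 in SHAM and 179 ± 30.4 in VEHICLE (SD, n = 4 each, log2 -0.63, adjusted p = 0.0146).

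The transcript of the main bile acid uptake transporter fell. Slc10a1, the sodium-dependent transporter NTCP that takes bile acids into hepatocytes, had 845, 864, 989 and 829 in SHAM, against 1421, 1443, 1447 and 1628 in VEHICLE. The groups did not overlap (log2 -0.75, SE 0.08, adjusted p = 4.19e-05), and CTLD averaged 1290 ± 131 (SD, n = 4). Abcc2, the canalicular pump MRP2, had 714, 725, 726 and 780 in SHAM and 1001, 981, 874 and 1132 in VEHICLE (log2 -0.43, SE 0.08, adjusted p = 0.00235). Abcb11, the bile salt export pump, averaged 996 ± 94.7 in SHAM and 862 ± 43.0 in VEHICLE and did not pass the test (SD, n = 4 each, limma adjusted p = 0.08). Over the bile acid transport list 3 of 19 fell, 1 rose and 15 did not pass, close to the background shares.

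Among genes of bile acid synthesis 3 of 16 fell, 2 rose and the median was -0.15. Cyp27a1, which opens the acidic pathway, averaged 1164 ± 19.9 in SHAM and 1471 ± 125 in VEHICLE (SD, n = 4 each, log2 -0.33, adjusted p = 0.0054), and Amacr, a racemase of side chain shortening, averaged 565 ± 20.1 in SHAM and 463 ± 20.0 in VEHICLE (SD, n = 4 each, log2 0.29). Cyp7a1, the rate-limiting enzyme of the classical pathway, had 70.2, 137, 160 and 200 in SHAM and 99.3, 210, 404 and 327 in VEHICLE. The libraries overlapped widely and the difference of -0.79 did not pass (adjusted p = 0.355). Cyp8b1, the sterol 12-hydroxylase, differed by -0.33 and did not pass (adjusted p = 0.0819). The high-Saa1 libraries were the lowest of VEHICLE for this gene, at 654 and 769. The difference of -0.54 without them is therefore a description, with no test.

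Many hepatocyte markers, among them secreted proteins, fell modestly. Of 18 hepatocyte markers 10 were lower and 8 did not pass, with a median of -0.24, and 9 were lower without the high-Saa1 libraries. The lower count was 6 to 10 with any 1 library left out, 7 to 10 under other scalings and 5 to 10 under other tests. At most 1 marker was higher in any of these. Alb, serum albumin, had 24839, 21053, 22363 and 20423 in SHAM, against 30402, 26936, 26994 and 32340 in VEHICLE (log2 -0.40, SE 0.09, adjusted p = 0.00537). The groups did not overlap, but under quantile normalization the difference was -0.28 and did not pass. Ttr, which carries thyroid hormone and retinol, averaged 11191 ± 530 in SHAM and 14231 ± 1088 in VEHICLE (SD, n = 4 each, log2 -0.34). Serpina1a, an antitrypsin, averaged 5523 ± 248 in SHAM and 7216 ± 416 in VEHICLE (SD, n = 4 each, log2 -0.38). The summed level of the 18 markers ran from 119852 to 132800 in SHAM and from 141454 to 165094 in VEHICLE, without overlap.

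Lipoprotein genes followed the same direction, with 9 of 20 apolipoprotein and lipase genes lower, 1 higher and a median of -0.24. Lcat, the plasma enzyme that esterifies cholesterol, had 312, 293, 310 and 275 in SHAM, against 641, 662, 503 and 497 in VEHICLE (log2 -0.94, SE 0.10, adjusted p = 6.83e-05). Apoc1, Apoc2 and Apoc4, small apolipoproteins encoded side by side, differed by -0.40, -0.59 and -0.57 (adjusted p between 0.000474 and 0.00133). The 1 gene that rose was Lpl, lipoprotein lipase, named here after its values were seen, with 358, 352, 370 and 308 in SHAM and 212, 196, 300 and 217 in VEHICLE (log2 0.60, SE 0.12, adjusted p = 0.00364).

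An inhibitor of that lipase fell. Angptl8, a feeding-induced protein that takes part in inhibiting lipoprotein lipase, had 30.3, 19.9, 21.0 and 5.93 in SHAM, against 81.4, 75.0, 131 and 59.0 in VEHICLE (log2 -2.24, SE 0.46, adjusted p = 0.0106). Its libraries did not overlap. The Angptl8 call ended without the high-Saa1 libraries (-2.33, adjusted p = 0.0856).

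**Figure D2:**
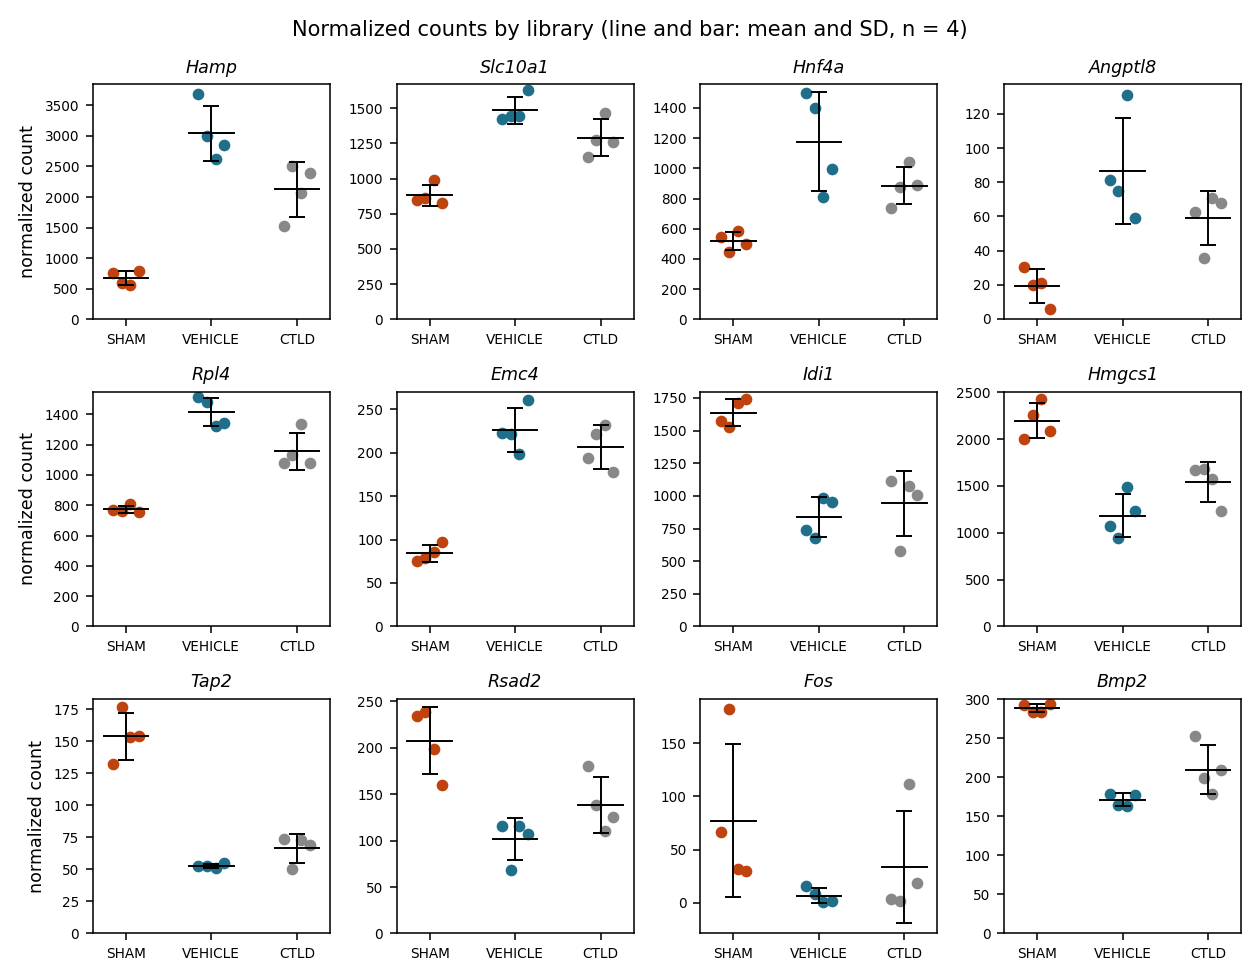
Normalized counts of 12 genes in each library of SHAM (orange), VEHICLE (blue) and CTLD (grey), with horizontal lines at the mean and bars of 1 SD (n = 4). For Hamp, Slc10a1, Hnf4a, Angptl8, Rpl4 and Emc4 the SHAM libraries lie below those of VEHICLE, and for Idi1, Hmgcs1, Tap2, Rsad2, Fos and Bmp2 above them.

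Several enzymes of cholesterol synthesis rose in SHAM livers. Of 24 genes in the list 10 were higher and 14 did not pass the test, with a median of 0.35, and 7 to 12 were higher with any 1 library left out. Idi1, the isopentenyl isomerase, had 1577, 1527, 1710 and 1740 in SHAM, against 742, 679, 983 and 951 in VEHICLE (log2 0.98, SE 0.11, adjusted p = 0.000164). Hmgcs1, the synthase that makes HMG-CoA, had 2004, 2259, 2433 and 2091 in SHAM and 1077, 941, 1485 and 1228 in VEHICLE (log2 0.91, SE 0.12, adjusted p = 0.000723). SHAM libraries were above all VEHICLE libraries for both. Further down the pathway, Msmo1 differed by 0.66 and Cyp51 by 0.53, both enzymes that remove methyl groups from lanosterol or its products (adjusted p = 0.00142 and 0.00102).

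For Idi1 and Hmgcs1 the high-Saa1 libraries were the lowest of VEHICLE. The change was smaller where these libraries were left out, with Idi1 at 0.76 and Hmgcs1 at 0.70, a description with no test. In that comparison 9 genes of the list were higher and 2 lower, the lower being Lss, lanosterol synthase, at -0.49 and Insig1, the sterol sensor that holds SREBP in the endoplasmic reticulum, at -0.66, both named after their values were seen. The RefSeq promoters of the leading pair (GRCm38.p6) are shown because sterol-regulated genes are switched on through SRE and NF-Y motifs. Capitals mark TCACNCCAC, a form of the SRE, and CCAAT or its complement, read on both strands. Idi1 lies at chr13:8885356-8885605 and Hmgcs1 at chr13:119690101-119690350, both on the plus strand.
Idi1: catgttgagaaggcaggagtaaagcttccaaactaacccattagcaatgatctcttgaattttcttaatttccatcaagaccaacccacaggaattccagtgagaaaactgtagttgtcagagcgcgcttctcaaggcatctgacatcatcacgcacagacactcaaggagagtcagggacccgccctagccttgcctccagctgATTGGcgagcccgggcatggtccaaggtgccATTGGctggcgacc
Hmgcs1: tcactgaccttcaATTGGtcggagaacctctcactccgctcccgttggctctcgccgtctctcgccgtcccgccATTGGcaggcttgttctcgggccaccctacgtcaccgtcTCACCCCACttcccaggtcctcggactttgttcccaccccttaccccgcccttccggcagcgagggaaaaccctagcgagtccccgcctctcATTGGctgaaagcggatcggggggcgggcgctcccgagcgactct
Hmgcs1 holds 1 SRE match and 3 CCAAT matches, and Idi1 holds 2 CCAAT matches. Over 32851 promoters of the same length, TCACNCCAC was found in 1.05% and CCAAT in 33.8%.

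A few genes that respond to feeding and insulin moved. In the gluconeogenesis and fasting list 2 of 20 were higher, 1 was lower and 17 did not pass. That is 15% called, below the 21.3% over all genes. Without the high-Saa1 libraries 1 was higher and 0 were lower. Gys2, liver glycogen synthase, averaged 140 ± 8.48 in SHAM and 195 ± 27.8 in VEHICLE (SD, n = 4 each, log2 -0.47, adjusted p = 0.0125), a call that ended without the high-Saa1 libraries (-0.41, adjusted p = 0.062). Igfbp2, a binding protein of insulin-like growth factors that fasting raises, had 1188, 954, 1253 and 1087 in SHAM and 629, 666, 841 and 738 in VEHICLE (log2 0.64, SE 0.10, adjusted p = 0.000946). Pck1, which commits carbon to gluconeogenesis, had 6272, 6091, 5745 and 5755 in SHAM and 6078, 6164, 1748 and 5354 in VEHICLE and did not pass (adjusted p = 0.503). VEHICLE library 3 lay far below the other 7 libraries. Srebf1, the activator of fat synthesis, differed by -0.51 without passing (adjusted p = 0.443). VEHICLE had 88.5, 278, 359 and 225, and the library at 88.5 is one with high Saa1. Without the high-Saa1 libraries the difference was -0.94, a description with no test.

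Fatty acid oxidation was mixed. Of 25 genes 6 fell, 1 rose and 18 did not pass, with a median of -0.17, and without the high-Saa1 libraries 10 fell and 1 rose. Hadha, the mitochondrial trifunctional subunit, had 469, 530, 523 and 512 in SHAM, against 743, 738, 785 and 885 in VEHICLE (log2 -0.63, SE 0.08, adjusted p = 0.000206), and Acaa2, the thiolase, differed by -0.31 (adjusted p = 0.00466). Ehhadh, the peroxisomal bifunctional enzyme, was the gene that rose, with 277, 248, 332 and 336 in SHAM and 169, 104, 160 and 173 in VEHICLE (log2 0.99, SE 0.16, adjusted p = 0.00147). Its call ended in the fits of all 36 libraries and of the 12 control libraries, where the difference was again 0.99. Plin2, which coats lipid droplets, had 1735, 2114, 1617 and 1738 in SHAM and 1223, 1064, 1404 and 1374 in VEHICLE (log2 0.51, SE 0.10, adjusted p = 0.0035). Cideb, which loads fat onto lipoproteins, fell by 0.32 on the log2 scale.

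Many transcripts of cytosolic ribosomal proteins were lower. Of 37 tested, 22 fell and 15 did not pass, against 10.2% lower over all genes, and the median was -0.29. The lower count was 20 without the high-Saa1 libraries and 20 to 24 with any 1 library left out. Rpl4, a protein of the large subunit, had 766, 765, 808 and 755 in SHAM, against 1513, 1482, 1326 and 1345 in VEHICLE (log2 -0.87, SE 0.07, adjusted p = 5.96e-06). Rpl11 averaged 558 ± 34.7 in SHAM and 954 ± 57.2 in VEHICLE, and Rps6, a target of growth signalling kinases, averaged 924 ± 32.6 in SHAM and 1381 ± 83.2 in VEHICLE (SD, n = 4 each). Ribosomal protein genes have many processed pseudogenes, and the counting may divide reads between them, which was not tested. The pseudogene Rpl7-ps7 was higher in SHAM (log2 1.37, SE 0.31, adjusted p = 0.00814), on 186 reads in SHAM and 83 in VEHICLE. Rpl7, named after its values were seen, differed by -0.06 and did not pass (adjusted p = 0.516).

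Direction was also set beside transcript properties. Genes were cut into 5 bins by transcript length, and 46.4% of called genes were higher in SHAM in the shortest bin and 58.7% in the longest. By GC content of the last 300 bases, 63.2% of called genes in the lowest bin were higher and 36.9% in the highest bin. The median log2 difference over all tested genes went with GC in the same way, at 0.04 in the lowest bin and -0.07 in the highest. The part of length and GC in the gene group results was not tested.

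**Figure D3:**
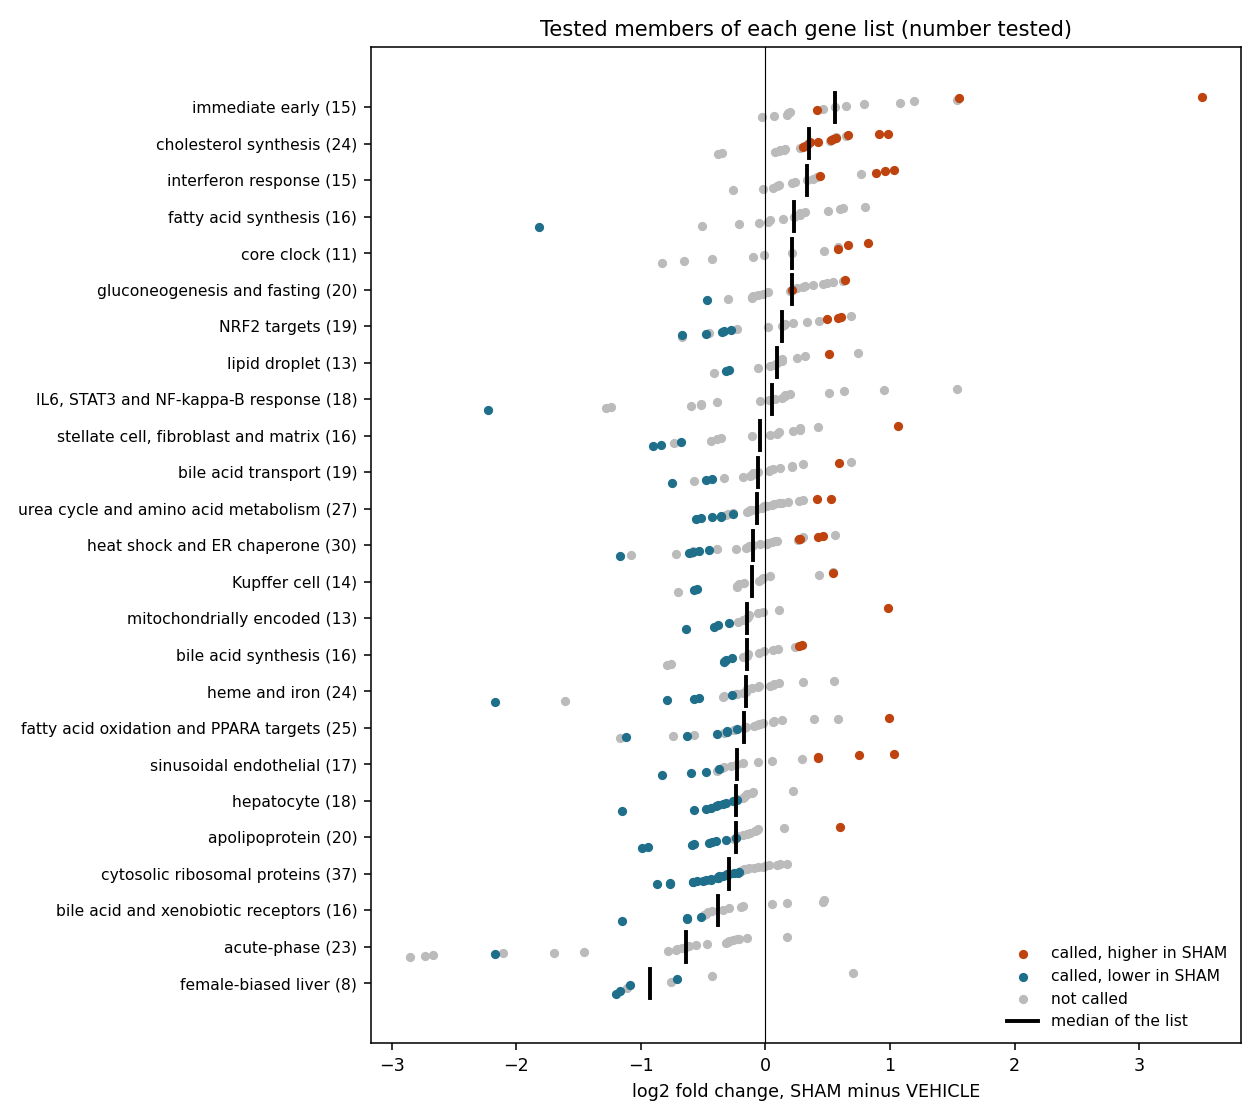
Log2 fold changes of SHAM over VEHICLE for the tested members of 25 gene lists, with orange points for genes called higher, blue for lower and grey for not called, and a black bar at each list's median. Cholesterol synthesis has its median at 0.35 and cytosolic ribosomal proteins at -0.29.

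Some interferon-induced and peptide-loading genes were higher in SHAM than in VEHICLE. In the interferon list 4 of 15 were higher and 11 did not pass, with a median of 0.33, and 5 were higher without the high-Saa1 libraries. That is 26.7% called, against 21.3% over all genes. Against CTLD, 3 of 16 were higher in SHAM, with a median of 0.12, and the median of VEHICLE over CTLD was -0.36. Rsad2, the antiviral enzyme viperin, had 234, 238, 198 and 160 in SHAM, against 116, 68.5, 116 and 107 in VEHICLE (log2 1.03, SE 0.18, adjusted p = 0.00206). Isg15, a ubiquitin-like modifier, had 72.9, 89.4, 70.5 and 84.2 in SHAM and 49.1, 46.3, 39.4 and 34.9 in VEHICLE (log2 0.89, SE 0.16, adjusted p = 0.00166). Ifit3 differed by 0.96 (adjusted p = 0.00668). No VEHICLE library reached a SHAM library for these 3 genes. For SHAM over CTLD, Rsad2 and Isg15 passed, at 0.59 and 0.54 (adjusted p = 0.0164 and 0.0128), and Ifit3 did not, at 0.42 (adjusted p = 0.187). The other called gene, Igtp, differed by 0.44 from VEHICLE, a call that ended under 9 alternatives. Igtp differed by -0.13 from CTLD and did not pass (adjusted p = 0.532).

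Tap2, a subunit of the transporter that feeds peptides to class I molecules, also rose. It had 132, 177, 153 and 154 in SHAM, against 52.6, 52.8, 51.4 and 55.0 in VEHICLE (log2 1.52, SE 0.13, adjusted p = 8.47e-06), and CTLD averaged 66.5 ± 11.1 (SD, n = 4). Its partner Tap1, named after its values were seen, had 127, 83.2, 76.8 and 109 in SHAM and 45.5, 47.2, 41.6 and 55.0 in VEHICLE (log2 1.03, SE 0.17, adjusted p = 0.0012). CTLD livers had 86.2, 68.0, 83.5 and 80.7 for Tap1, within the SHAM range in part, and SHAM against CTLD did not pass (log2 0.29, adjusted p = 0.219).

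Some immediate early genes rose. Of 15 tested, Fos, Klf2 and Nr4a1 rose and 12 did not pass, with a median of 0.56, and 2 rose without the high-Saa1 libraries. Klf2, a flow-responsive factor, lost its call without SHAM library 2 and under 2 other settings, at 0.39 to 0.42. Fos, a transcription factor that responds within minutes to stimuli and tissue handling, had 66.1, 182, 31.6 and 29.6 in SHAM, against 15.6, 8.33, 1.09 and 1.34 in VEHICLE (log2 3.50, SE 0.88, adjusted p = 0.0311). It passed the filter through SHAM, where it is high, and had 24 reads over all VEHICLE libraries. VEHICLE libraries 3 and 4 held 1 read each, so its size and its call rest on values near the floor. The call ended when SHAM library 1 or VEHICLE library 2, 3 or 4 was left out, and under 3 other settings, with the difference at 3.05 to 3.77. CTLD had 3.04, 1.62, 112 and 18.5, a range that overlaps both groups. Nr4a1 had 44.0, 53.4, 15.8 and 10.7 in SHAM and 13.2, 10.2, 4.38 and 6.70 in VEHICLE, so that the groups overlapped, and its call ended under 11 alternatives, among them leaving out SHAM library 1, 2 or 3 or VEHICLE library 2, 3 or 4 (1.01 to 2.03 over the 11).

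Clock genes moved in part. Of 11 core clock genes 3 were higher, and without the high-Saa1 libraries 1 was higher (Nr1d2) and 2 lower, among them Per2, named after its values were seen. Nr1d2, the repressor REV-ERB beta, had 140, 179, 122 and 158 in SHAM, against 88.5, 85.1, 63.5 and 101 in VEHICLE (log2 0.82, SE 0.16, adjusted p = 0.00252). Arntl, the activator BMAL1, averaged 184 ± 26.5 in SHAM and 136 ± 40.0 in VEHICLE and did not pass (SD, n = 4 each, limma adjusted p = 0.124). Dbp, a steep output of the clock, was below the filter, at 2.48 to 6.31 in SHAM and 1.20 to 6.48 in VEHICLE. Npas2 and Cry2 were the other called genes, at 0.66 and 0.58, and each call ended under 9 or more alternatives. Among these was leaving out SHAM library 2 or 4 or VEHICLE library 1, 2 or 4, with SHAM library 1 for Npas2 and SHAM library 3 for Cry2, at 0.56 to 0.68 for Npas2 and 0.50 to 0.63 for Cry2.

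Some chaperones moved in each direction. Cytosolic Hspa8, the constitutive HSC70, had 1804, 1880, 1531 and 1933 in SHAM, against 2633, 2582, 2909 and 2502 in VEHICLE (log2 -0.58, SE 0.08, adjusted p = 0.000421), and the heat-inducible Hspa1b, which shares almost all its sequence with a neighbour, differed by -1.17 (adjusted p = 0.00133). Pdia6, a disulfide isomerase of the endoplasmic reticulum, had 1826, 1770, 1686 and 1811 in SHAM and 1166, 1481, 1283 and 1382 in VEHICLE (log2 0.42, SE 0.08, adjusted p = 0.00214). Hyou1, another chaperone there, differed by 0.46 (adjusted p = 0.00433). Over the list 4 of 30 rose and 5 fell, near the background.

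Enzymes of redox and amino acid metabolism went both ways. Gsr, glutathione reductase, had 290, 318, 307 and 277 in SHAM, against 190, 190, 186 and 217 in VEHICLE (log2 0.61, SE 0.09, adjusted p = 0.000599), while Gsta4 and Gstm1, glutathione transferases, differed by -0.67 and -0.35. The Gstm1 call ended under 4 alternatives, among them quantile normalization at -0.18. Among 19 NRF2 targets 3 rose and 5 fell. Hpd and Fah, enzymes of tyrosine breakdown, differed by -0.52 and -0.36 (adjusted p = 0.000221 and 0.00209). Cth, which makes cysteine, differed by 0.53 (adjusted p = 0.00118). Of 27 urea cycle and amino acid genes 2 rose, 6 fell and the median was -0.07.

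Among genes with higher expression in female mouse liver, 8 of 22 passed the filter and 4 of those fell. Cyp3a41b had 89.4, 65.8, 74.7 and 79.5 in SHAM, against 181, 178, 143 and 198 in VEHICLE (log2 -1.17, SE 0.13, adjusted p = 9.32e-05). Its near-identical copy Cyp3a41a differed by -0.71 (adjusted p = 0.0083), a call that ended without the high-Saa1 libraries (-0.67, adjusted p = 0.0502), and reads may be divided between them. Among 26 male-biased genes 1 rose and 1 fell, with a median of 0.03, and the summed level ran from 111785 to 142648 in SHAM and from 108109 to 135354 in VEHICLE.

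Markers of other liver cells went both ways. Of 17 sinusoidal endothelial genes 4 rose and 4 fell, and without the high-Saa1 libraries 2 rose and 4 fell. Egfl7, a vessel-derived factor, had 122, 98.0, 122 and 91.3 in SHAM, against 35.9, 47.2, 75.5 and 57.7 in VEHICLE (log2 1.03, SE 0.20, adjusted p = 0.00329). Fcgr2b, the endothelial receptor for immune complexes, had 161, 169, 160 and 146 in SHAM and 262, 195, 265 and 249 in VEHICLE (log2 -0.60, SE 0.11, adjusted p = 0.00235). Lyve1, the hyaluronan receptor, differed by -0.83, a call that ended without the high-Saa1 libraries (-0.60, adjusted p = 0.0567).

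Kupffer cell markers gave opposite signs within 1 complex. Of 14, C1qa was higher and C1qb and Csf1r were lower. Csf1r, the receptor for the macrophage growth factor, averaged 141 ± 16.6 in SHAM and 211 ± 36.6 in VEHICLE (SD, n = 4 each, log2 -0.57, adjusted p = 0.00845), and without the high-Saa1 libraries it did not pass (-0.36, adjusted p = 0.0864). C1qa and C1qb, chains of the same complement protein, differed by 0.54 and -0.55, their libraries overlapped, and each call ended when any of SHAM library 2 or 3 or VEHICLE library 2 or 3 was left out, with SHAM library 1 and VEHICLE library 4 for C1qa and VEHICLE library 1 for C1qb, at 0.42 to 0.58 for C1qa and -0.56 to -0.36 for C1qb. Without the high-Saa1 libraries 4 of the 14 were higher (C1qa, Cd5l, Cd163 and Folr2, the last 3 named after their values were seen). The summed Kupffer level ran from 1485 to 1936 in SHAM and from 1440 to 2034 in VEHICLE.

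Of 16 stellate cell, fibroblast and matrix genes tested, 1 rose, 3 fell and 12 did not pass, with a median of -0.04, and without the high-Saa1 libraries 3 fell. The gene that rose was Lrat, a retinol-esterifying enzyme of stellate cells, at 1.06, and its call ended under 8 alternatives, among them leaving out SHAM library 1 or 3 or VEHICLE library 2 or 3 (0.76 to 1.06 over the 8). Col3a1, fibrillar collagen III, had 30.3, 39.7, 42.1 and 30.8 in SHAM, against 77.8, 50.9, 60.2 and 83.1 in VEHICLE (log2 -0.90, SE 0.19, adjusted p = 0.00506). Col1a1 averaged 15.9 ± 0.761 in SHAM and 28.5 ± 10.2 in VEHICLE and did not pass (SD, n = 4 each, limma adjusted p = 0.0739). Krt19, the bile duct keratin, was below the filter, at 1.05 to 3.56 in SHAM and 2.19 to 6.70 in VEHICLE. Only S100a8 and S100a9 of 13 neutrophil markers passed the filter, and the summed neutrophil level was 35.8 to 57.8 in SHAM and 6.7 to 316 in VEHICLE, so the VEHICLE range spans that of SHAM.

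Other genes with large differences belong to none of these groups. Emc4, a subunit of the complex that inserts proteins into the endoplasmic reticulum membrane, had 75.7, 78.2, 85.2 and 97.2 in SHAM, against 223, 222, 199 and 261 in VEHICLE (log2 -1.42, SE 0.12, adjusted p = 1.04e-05). Stx5a, a Golgi fusion protein, had 83.9, 79.4, 61.0 and 73.5 in SHAM and 176, 176, 197 and 182 in VEHICLE (log2 -1.29, SE 0.12, adjusted p = 2.76e-05). Kcnq1ot1, a long noncoding RNA of the imprinted Kcnq1 locus, had 117, 84.4, 75.7 and 83.0 in SHAM and 368, 225, 466 and 296 in VEHICLE (log2 -1.87, SE 0.22, adjusted p = 0.000463). It lies antisense to Kcnq1, and the strand setting of the counting is not given in the sources used here. All 3 genes separated the groups without overlap.

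On the raised side, Spata13, an exchange factor for small GTPases, had 193, 199, 197 and 159 in SHAM, against 84.9, 80.5, 59.1 and 99.2 in VEHICLE (log2 1.21, SE 0.15, adjusted p = 0.000164). Tbc1d30, a Rab GTPase activator, differed by 1.47 and Sertad3, a transcription regulator, by 1.27 (adjusted p = 0.000391 and 0.00199). Gnpda1, which turns glucosamine phosphate into fructose phosphate, differed by 1.21 (adjusted p = 0.00379). Mup-ps17, a pseudogene of the major urinary proteins, had 286, 169, 210 and 242 in SHAM and 104, 80.5, 75.5 and 52.3 in VEHICLE (log2 1.54). That family is highly similar in sequence, so reads from other members may be counted there. Tcp11l2 and Ccdc36 rose by 1.54 and 1.99 on the log2 scale, and the Tcp11l2 call ended without the high-Saa1 libraries (1.60, adjusted p = 0.0667).

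VEHICLE libraries 1 and 2 stood apart from the other 6 libraries in acute-phase genes. Saa1 and Saa2 encode serum amyloid A, secreted by the liver during inflammation. Saa1 had 1152, 928, 987 and 1188 in SHAM, against 9848, 7126, 281 and 296 in VEHICLE. Saa2 had 283, 267, 206 and 353 in SHAM and 10084, 6509, 64.6 and 73.8 in VEHICLE. For both genes the SHAM libraries lay between the high and the low VEHICLE libraries, and with all 8 libraries Saa1 differed by -0.56 (SE 1.39, adjusted p = 0.819) and Saa2 by -1.46 (SE 1.96, adjusted p = 0.646). CTLD averaged 581 ± 216 for Saa1 (SD, n = 4).

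The 2 libraries were singled out by their Saa1, so values of Saa1, of its near copy Saa2 and of genes that move with them are given without these libraries as a description, with no test, since the choice fixes the direction in which they move. On that basis SHAM minus VEHICLE was 1.87 for Saa1 and 1.97 for Saa2. In the acute-phase list, 1 of 23 genes was called with all 8 libraries, Hamp, and the median was -0.64, while without the 2 libraries the median was 0.15, with 6 genes past the threshold above 0 and 4 below, a turn that follows in part from leaving out libraries with high members of this list. Serpina3n, an antiprotease of the acute phase, had 223, 235, 241 and 224 in SHAM and 2229, 1066, 361 and 366 in VEHICLE. It was below every VEHICLE library with or without those 2, at -1.70 with all 8 (adjusted p = 0.112) and -0.66 without the 2. Stat3, the transcription factor of the response and named after its values were seen, had 855, 779, 974 and 792 in SHAM and 796, 633, 452 and 393 in VEHICLE, which gave 0.63 with all 8 (adjusted p = 0.0817) and 1.00 without the 2 libraries. Against CTLD, SHAM livers differed by 0.95 for Saa1 and 0.74 for Saa2 without passing the test (adjusted p = 0.0842 and 0.0863).

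The 2 VEHICLE libraries also held high metallothionein and lipocalin. Mt2, a zinc-binding protein, had 20.6, 22.3, 41.0 and 14.2 in SHAM and 7947, 539, 16.4 and 10.7 in VEHICLE. Lcn2, an iron-scavenging defence protein, had 4.13, 6.21, 15.8 and 3.56 in SHAM and 851, 315, 4.38 and 0 in VEHICLE, and did not pass the filter. Orm2, an acid glycoprotein, had 78.4, 50.9, 57.9 and 59.3 in SHAM and 1272, 793, 88.7 and 55.0 in VEHICLE. Of the 10685 genes tested, 1066 were above and 962 below every one of the 6 other libraries in both. How many any other 2 libraries would give was not measured, so these counts have no background, and the cause was not tested. Icam1, an adhesion molecule, fell by 2.23 on the log2 scale with all 8 libraries (adjusted p = 0.0404) and differed by -1.17 without the 2 (adjusted p = 0.0836). It had 8.26, 7.45, 13.7 and 4.74 in SHAM and 139, 54.6, 23 and 16.1 in VEHICLE. Icam1 passed the filter through VEHICLE, where it is high, and had 29 reads over all SHAM libraries. Its call also ended without any 1 SHAM library or VEHICLE library 2, and over all alternatives that ended it the difference was -2.73 to -1.17.

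**Figure D4:**
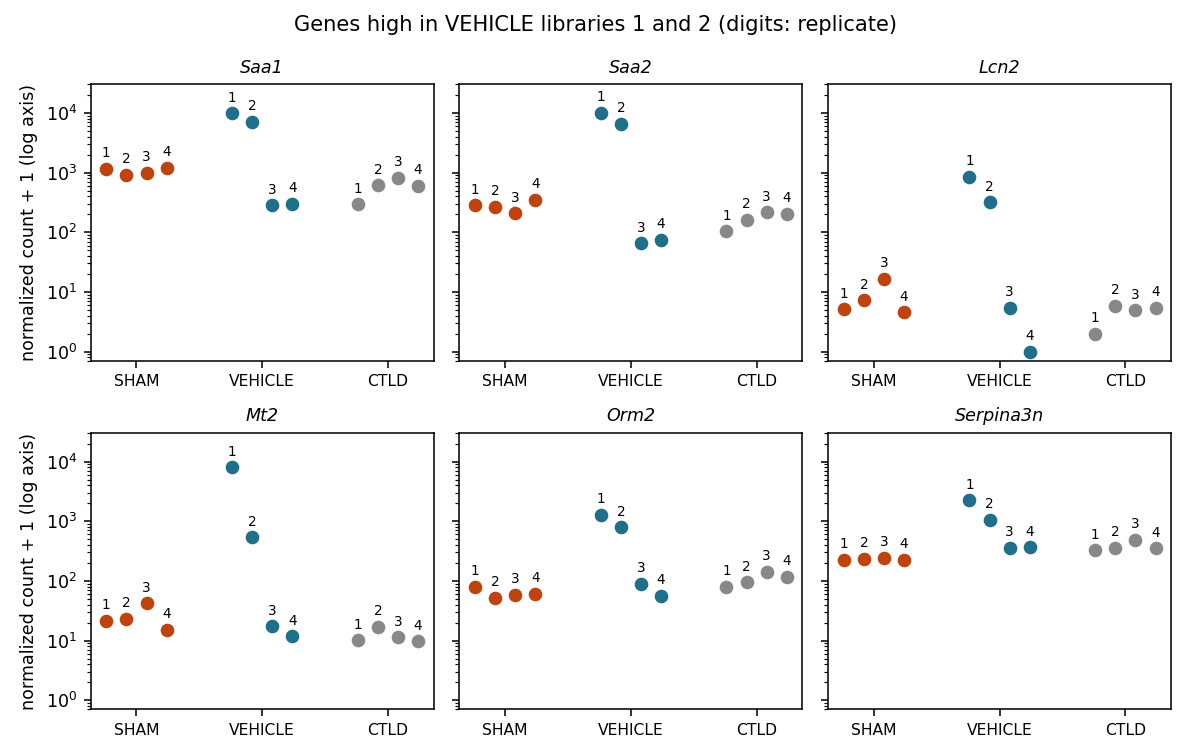
Normalized counts plus 1, on a log axis, of 6 genes in each library of SHAM (orange), VEHICLE (blue) and CTLD (grey), with the replicate number above each point. VEHICLE 1 and 2 lie far above all others for Saa1, at 9848 and 7126, and SHAM libraries lie above VEHICLE 3 and 4, at 281 and 296.

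The RefSeq promoters of Saa1 (GRCm38.p6, chr7:46742981-46743230, minus strand) and Saa2 (chr7:46751583-46751832, plus strand) are shown because the genes moved together and are near copies, so that reads may be divided between them. Capitals mark TTGCNNAA, the letters of a C/EBP site.
Saa1: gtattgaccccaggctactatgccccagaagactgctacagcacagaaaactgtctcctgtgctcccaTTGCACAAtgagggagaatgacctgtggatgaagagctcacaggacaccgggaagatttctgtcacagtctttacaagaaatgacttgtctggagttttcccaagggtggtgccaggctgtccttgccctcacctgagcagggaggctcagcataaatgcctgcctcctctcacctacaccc
Saa2: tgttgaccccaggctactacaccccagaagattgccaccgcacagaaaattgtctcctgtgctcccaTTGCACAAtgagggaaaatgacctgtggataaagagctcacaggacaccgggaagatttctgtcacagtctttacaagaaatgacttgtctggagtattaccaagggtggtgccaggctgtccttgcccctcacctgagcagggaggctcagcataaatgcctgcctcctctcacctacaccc
Aligned over 251 columns, 94.8% of positions were identical. Each holds 1 match, 182 and 183 bases before the start, and TTGCNNAA was found in 9.56% of 32851 promoters.

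The control diet group was set beside both. SHAM differed from CTLD in 2271 of 10642 genes (21.3%), 1119 higher (10.5%) and 1152 lower (10.8%), with 34.0% at an unadjusted p under 0.05, whereas VEHICLE differed from CTLD in 2 of 10710 (0.0187%), with 727 (6.79%) at an unadjusted p under 0.05. The 2 genes were Osgin1, a redox-responsive growth regulator, and Rdh16f2, a retinol dehydrogenase relative, named after their values were seen, at 0.91 and 0.68. These comparisons share libraries, so their results are not independent. Side by side for SHAM over VEHICLE, SHAM over CTLD and VEHICLE over CTLD, Hamp differed by -2.17, -1.64 and 0.53. Idi1 differed by 0.98, 0.84 and -0.14, and Rpl4 by -0.87, -0.57 and 0.30. For each of these 3 genes both SHAM comparisons passed the test and VEHICLE against CTLD did not (adjusted p from 0.628 to 0.907).

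Gene lists were compared with the same groups. Of 37 ribosomal genes 20 were lower in SHAM than in CTLD, with a median of -0.22, and the median of VEHICLE over CTLD was 0.07. Of 24 genes of cholesterol synthesis 7 were higher and 2 lower in SHAM than in CTLD, with a median of 0.18, against -0.22 for VEHICLE over CTLD. In the acute-phase list 6 were higher and 3 lower in SHAM than in CTLD, with a median of 0.09. The median of VEHICLE over CTLD in this list was 0.7, with 0 of 22 genes called.

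Where the other groups of the study lay on the genes called between SHAM and VEHICLE was measured as the share on the SHAM side of the midpoint of the 2 group means. The SHAM and VEHICLE libraries, which defined the genes, had 95.8% to 97.6% and 3.77% to 7.63%. BDL7 libraries had 66.5% to 71.1%, BDL28 59.3% to 61.4%, DDC7 64.2% to 67.4% and DDC28 60.5% to 65.8%. CsA7 libraries had 22.3% to 30.0%, CsA28 19.6% to 29.4% and CTLD 20.7% to 24%. No library of the ligation and DDC groups overlapped any library of the cyclosporin and control diet groups.

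On genes that were not called, the shares were 52.1% to 56.0% over the 4 ligation and DDC groups and 40.5% to 43.4% over the cyclosporin and CTLD groups. In all 4 BDL7 libraries 1226 of the 2281 genes lay on the SHAM side, in all 4 DDC7 libraries 1171, in all 4 CsA7 libraries 133 and in all 4 CTLD libraries 47. With the genes called without the high-Saa1 libraries, chosen after seeing the data, BDL7 had 69.4% to 74.6% and CsA7 23.4% to 30.0%. Group means of 3 named genes are given beside these shares. Emc4 averaged 84.1 ± 9.65 in SHAM, 67.7 in BDL7, 93.2 in DDC7, 199 in CsA7, 206 in CTLD and 226 ± 25.8 in VEHICLE (SD given for n = 4 each). Hnf4a averaged 518 in SHAM, 420 in BDL7, 527 in DDC7, 874 in CsA7, 885 in CTLD and 1177 in VEHICLE. Hamp averaged 677 in SHAM, 1337 in BDL7, 2534 in BDL28, 2080 in DDC7, 1967 in CsA7, 2125 in CTLD and 3040 in VEHICLE.

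**Figure D5:**
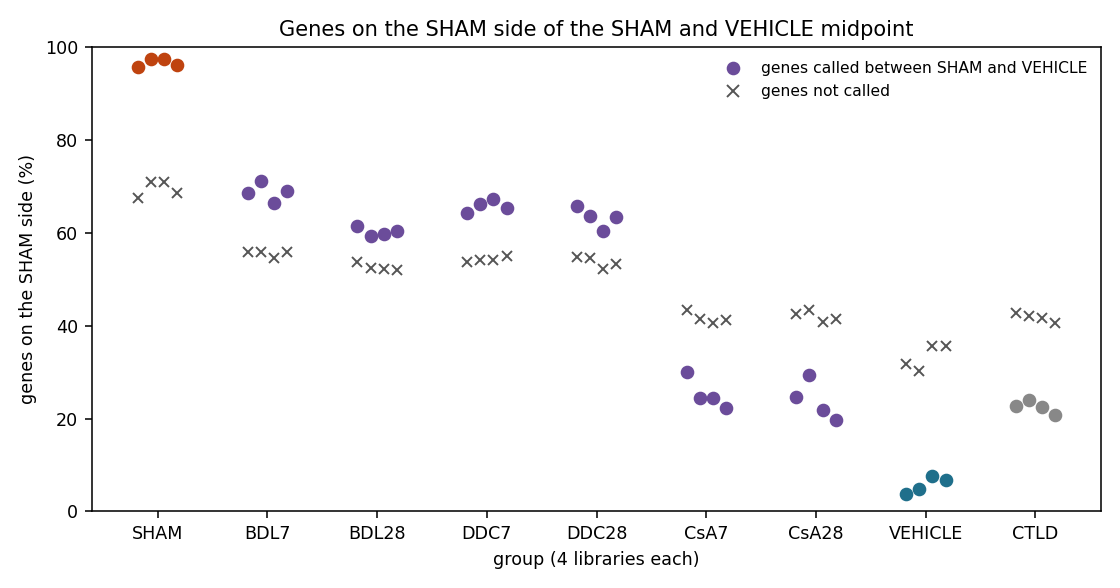
Percentage of genes on the SHAM side of the midpoint between the SHAM and VEHICLE means, for each of 36 libraries by group, with filled points for the 2281 called genes and crosses for genes not called. BDL and DDC libraries lie between 59.3% and 71.1% and CsA and CTLD libraries between 19.6% and 30.0%.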

How the data were processed

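Liver RNA was sequenced from 36 mice in 9 groups of 4. Per the submitters' processing notes, the tools used include STAR 2.7.9a and RSEM 1.3.1, UMI-tools 1.1.1, DESeq2 and Trim Galore, with build GRCm39, listed without order or settings. The deposited signal values are the authors' normalized counts per gene, of which 100% in these libraries were whole reads divided by 1 factor per library within 0.001 read, so reads could be recovered for the 8 libraries, 2278745 to 3353429 per library. Their number limits precision at low counts. Symbols came from the reference annotation (29121 of 29546 IDs) and promoters from RefSeq, whose build (GRCm38.p6) differs from the files'.

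A gene was tested if 4 or more of the 8 libraries reached a normalized count of 10, on log2(value + 1) with limma 3.58.1 in R 4.3.3 (trend and robust options), and p-values were adjusted by Benjamini-Hochberg over 10685 genes. Fold changes are on the log2(value + 1) scale, which understates low genes. The fit was tested on simulated data. Alternatives included edgeR 4.0.16 and DESeq2 1.42.0 on recovered reads. Named genes were fixed anchors, up to 12 per direction with the largest called differences without overlap and a mean of at least 50, up to 4 called per list with the lowest adjusted p, and up to 10 genes high in the high-Saa1 libraries. The comparison, genes and lists were chosen with earlier results of these data known. Some genes that the rule names are not reported here.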

Additional observations from a re-analysis of the deposited data

Results flagged for a closer look

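In a group of 4 libraries, 1 library far from the other 3 was looked for in 280 groups of values, and 17 stood out, where chance gives about 1 in 20. In SHAM the highest library stood apart for Slco1a1 (1591), Apoc4 (1967), Urod (153), Ftl1 (4853) and Mt1 (120), and the lowest for Tpm3-rs7 (55.8), Spata13 (159) and Ephx1 (330). In VEHICLE the highest library stood apart for Mt2 (7947), Mt1 (6502), Slc10a1 (1628), Nr1i3 (224), Gsr (217), Ftl1 (6935), Aass (1042), Abcd2 (32.8) and mt-Atp8 (1986). Causes were not tested.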

How the results depend on the processing

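Of 136 named genes tested, 108 were called. Of these, 66 kept direction and call under each of the 24 alternatives in which they were tested, and 0 of the 108 reversed. Not every gene was tested in each: under the filter of at least 50, 112 of the 136 were, and a gene left out there could count as kept. The number of genes called, 2281, ran from 1594 to 2151 with 1 library left out, higher calls from 782 to 1114 and lower calls from 812 to 1060. Without SHAM replicate 3 higher calls were 782, against 1189 with it. Other tests and scalings gave 1758 to 2442, and the fit of all 36 libraries gave 2500. Under total-count scaling 60.7% of calls were higher, against 52.1%.

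Replicate numbers in the descriptions and in the titles did not pair the samples, with residual correlations from -0.015 to 0.081 and from -0.005 to 0.044. With the replicate block by description number 2102 genes were called. With the replicate block by title number, which uses 3 pairs, 1367 were called, 678 higher and 689 lower, and Saa1 was 0.36.

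Without the 2 VEHICLE libraries with high Saa1, genes that were not called with all 8 changed sign: Saa1 (1.87), Saa2 (1.97), Mt2 (0.74), Mt1 (0.09), Orm3 (1.22), Nfkbiz (0.16) and Cdkn1a (0.04). The libraries left out were chosen by Saa1, so these signs are no test. With 1 library left out, Saa1 ran from -1.38 to 0.33, Cyp2b10 from -0.11 to 0.36 and Hsd3b5 from -0.22 to 0.06. The causes were not tested. Depth limits what can be said of genes near 10 normalized counts.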

Other observations

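Mitochondrially encoded transcripts went both ways between SHAM and VEHICLE livers, with 1 of 13 higher, 4 lower and a median of -0.15. Of 11 genes of the integrated stress response 3 were higher and 1 lower, 36.4% called against 21.3% over all genes. Among the 3 was Trib3, named after its values were seen, at 1.97 (limma adjusted p = 0.0462), on 56 reads in SHAM and 18 in VEHICLE. Among 16 markers of periportal hepatocytes 2 were higher and 4 lower, and among 15 pericentral markers 2 were higher and 3 lower. Krt8 and Krt18, keratins that hepatocytes also make, were the 2 lower genes of 7 tested cholangiocyte markers. Muscle genes summed to 1.24 to 4.21 normalized counts in SHAM and 1.2 to 4.63 in VEHICLE.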
